A study of Mus musculus with 16 samples.

Results

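Methylation was examined in 3958 windows of 1 kb that were partly methylated in mESCs transduced with a control shRNA (mESC shCtrl) and that did not overlap any of the 20 imprinting control regions (ICRs) of the study. The windows were selected on both mESC shCtrl libraries. Each had to be autosomal, to hold 5 or more covered CpGs in each library, and to have a level between 30% and 70% in both, where the level of a window is the mean over its CpGs. They made up 8.85% of the 44719 windows with 5 or more CpGs in both libraries. Of the others, 23114 were under 30% in both libraries, 16111 were over 70% in both, 1508 lay on either side of a limit, and 28 overlapped an ICR, 20 of them intermediate. The window just inside the lower limit stood at 30% and 30.67%, and the one just outside it at 29.99% and 37.27%. At the upper limit the values were 65.51% and 69.98% just inside, and 70% (rounded) and 61.43% just outside. Because the mESC shCtrl values chose the windows, they are given as a description and nothing was tested against them.

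The samples were 8 groups of 2 libraries from reduced representation bisulfite sequencing (RRBS), an assay that reads the share of methylated cytosines in the CpG-rich part of a genome. All came from E14, a mouse embryonic stem cell (mESC) line of the 129/Ola strain grown in serum with LIF. YP-mESC (labelled Young) were cells of early passage and OP-mESC (labelled Old) the same cells after prolonged culture. OP-S33Y #1 and OP-S33Y #2 (labelled O-S33Y) were each 1 clone that overexpressed the stable S33Y form of β-catenin, derived from the YP-mESCs and then kept in long culture. mESC shCtrl and mESC shβcat #1 were YP-mESCs transduced with a control shRNA or with an shRNA against β-catenin. EB shCtrl and EB shβcat #1 were embryoid bodies (EBs) of these cells at day 8 of differentiation, a mixture of cell types. Methylation data carry no expression of marker genes or of β-catenin, so cell type, knockdown and overexpression were not checked here. In bulk DNA, a level of 50% from a mixture of cells and one from a mixture of alleles cannot be told apart.

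CpG methylation is set by the de novo methyltransferases Dnmt3a and Dnmt3b and copied at replication by Dnmt1, while Tet enzymes and incomplete copying remove it. Most of the mammalian genome is either highly methylated or, at CpG islands, nearly free of methylation. Intermediate levels are best known from ICRs, where the alleles of the parents differ, and are also seen at distal regulatory elements, island borders and in cell populations that are not uniform. Mouse ESCs in serum are known for heterogeneous methylation, and differentiation is known to bring a broad gain of methylation.

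The libraries held 18919219 to 40519010 reads on CpGs, counted at each CpG that a read covers, and a member window was read by a median of 179 to 305 reads over 6 or 7 CpGs. OP-mESC replicate 2 covered 1226 of the windows (31%), and chromosome 13 is empty in YP-mESC replicate 2. The other libraries covered 60% to 98.7%, apart from the mESC shCtrl libraries that defined the set. Replicates differed by a median of 3.4 to 4.2 percentage points per window in the 8 groups, and by more than 25 points in 0.1% to 0.8% of the windows. Intervals from read numbers would cover counting error only, so the spread between replicates is given throughout. The study calls the replicates of the YP-mESC, OP-mESC and OP-S33Y lines biological. No source used here says whether any replicates were separate cultures, so the p-values below measure only the spread between these libraries, part of which may be technical.

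Stretches of 300 bases of 6 windows are shown because they carry the main patterns. They are from the mm9 reference, plus strand, with each CpG read in at least 12 of the 16 libraries in capitals. The Ywhag stretch (chr5:136387032-136387331, coding exon, 13 CpGs in capitals) lost methylation in OP-mESC and gained it in EBs. The Robo4 stretch (chr9:37215672-37215971, coding exon, 5 CpGs) was one of 2 windows called higher in OP-mESC. The Ppp6r3 stretch (chr19:3533204-3533503, intron, 5 CpGs) had the largest gain in EBs with shβcat #1. The chromosome 9 stretch (chr9:118377588-118377887, intergenic, 9 CpGs) differed between the EB groups. The chromosome 7 stretch (chr7:7230656-7230955, intergenic, 17 CpGs) had the smallest range among the 431 windows read in all 16 libraries with 10 or more CpGs on average. The Zfp316 stretch (chr5:144015342-144015641, coding exon, 54 CpGs) was nearly unmethylated in the lines without an shRNA.
Ywhag: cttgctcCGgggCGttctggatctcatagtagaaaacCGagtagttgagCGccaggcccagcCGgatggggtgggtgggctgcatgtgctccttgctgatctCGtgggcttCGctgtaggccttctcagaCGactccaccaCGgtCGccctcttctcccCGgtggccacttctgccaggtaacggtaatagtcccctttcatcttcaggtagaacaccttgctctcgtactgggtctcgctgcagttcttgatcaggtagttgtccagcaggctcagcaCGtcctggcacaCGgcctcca
Robo4: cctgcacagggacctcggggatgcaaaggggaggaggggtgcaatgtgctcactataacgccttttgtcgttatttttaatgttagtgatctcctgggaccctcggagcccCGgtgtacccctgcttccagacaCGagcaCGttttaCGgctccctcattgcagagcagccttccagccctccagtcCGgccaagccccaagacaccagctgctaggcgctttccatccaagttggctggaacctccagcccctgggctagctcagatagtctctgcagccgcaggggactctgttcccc
Ppp6r3: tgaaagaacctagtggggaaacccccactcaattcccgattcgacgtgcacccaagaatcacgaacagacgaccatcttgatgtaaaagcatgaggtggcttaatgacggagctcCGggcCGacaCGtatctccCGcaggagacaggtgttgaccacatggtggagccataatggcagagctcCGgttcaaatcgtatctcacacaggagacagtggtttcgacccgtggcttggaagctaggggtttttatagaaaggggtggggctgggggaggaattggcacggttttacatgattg
Chromosome 9 window: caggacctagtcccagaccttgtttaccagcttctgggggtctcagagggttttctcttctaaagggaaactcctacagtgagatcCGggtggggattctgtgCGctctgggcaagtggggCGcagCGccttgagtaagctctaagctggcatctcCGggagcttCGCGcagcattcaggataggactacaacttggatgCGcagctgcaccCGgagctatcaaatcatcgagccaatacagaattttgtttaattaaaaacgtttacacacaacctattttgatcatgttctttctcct
Chromosome 7 window: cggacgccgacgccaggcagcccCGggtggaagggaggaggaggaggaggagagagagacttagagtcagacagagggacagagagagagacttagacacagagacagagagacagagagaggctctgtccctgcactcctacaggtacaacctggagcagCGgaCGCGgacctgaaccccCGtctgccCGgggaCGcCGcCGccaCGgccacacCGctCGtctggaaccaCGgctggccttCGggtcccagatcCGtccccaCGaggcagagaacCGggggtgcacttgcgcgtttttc
Zfp316: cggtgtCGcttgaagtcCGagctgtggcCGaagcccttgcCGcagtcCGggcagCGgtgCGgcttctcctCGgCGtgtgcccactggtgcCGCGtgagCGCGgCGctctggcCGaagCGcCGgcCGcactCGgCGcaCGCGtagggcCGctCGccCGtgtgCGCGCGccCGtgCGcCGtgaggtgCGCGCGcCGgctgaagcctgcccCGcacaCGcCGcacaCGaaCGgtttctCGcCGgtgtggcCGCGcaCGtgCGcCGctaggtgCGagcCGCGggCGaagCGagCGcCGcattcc

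The capitals of one stretch did not share one level. In the Ywhag stretch, the group means of single CpGs ran from 49.6% to 77.5% in YP-mESC, from 1.1% to 22.0% in OP-mESC and from 83.5% to 100.0% in EB shβcat #1. In the Robo4 stretch they ran from 16.8% to 45.1% in YP-mESC and from 49.5% to 75.7% in OP-mESC. In the Zfp316 stretch, all 54 CpGs were at 0.0% to 11.0% in YP-mESC and at 20% to 54.3% in mESC shCtrl.

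The windows lay between the low and the high windows in CpG number. They had a median of 24 CpGs per kb of reference sequence (quartiles 19 and 32), against 52 in windows under 30% and 20 in windows over 70%, and an observed to expected CpG ratio of 0.36, against 0.65 and 0.32. Intermediate windows within ICRs had a median of 51.5 CpGs and a ratio of 0.65. By the GENCODE vM1 annotation, 13.7% of the 3958 windows contained a transcription start, 35.1% another exon, 21.3% an intron only and 29.9% no gene. Among all 44719 windows the shares were 33.4%, 26.4%, 16.4% and 23.7%. Windows at transcription starts were therefore fewer, and exonic ones more, than among all windows read, as a description of the set. Of the 1122 member windows with a neighbouring window that was also read, 49.6% had one under 30%, 23.2% one over 70% and 27.6% another member. Among the 130 with both neighbours read, 31 (23.8%) lay between a window under 30% and one over 70%. No adjacent member was found for 3648 windows, most of which had no neighbour that was read, and there were 145 pairs, 4 runs of 3 and 2 runs of 4.

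The longest runs lay in genes of transcriptional regulators. One covered the coding exon and UTR of Ahdc1, a gene for an AT-hook protein (chr4:132617000-132620999), and the other the end of Foxp4, a forkhead factor gene, with the kilobase beyond it (chr17:48003000-48006999). The 4 Ahdc1 windows stood at 32% to 55.8% in the mESC shCtrl libraries, and at 80.5% to 92.3% in the EB libraries that read them. In the third Ahdc1 window, YP-mESC had 42.2% and 38.9% and OP-mESC 11.7% and 12.1%, and this window was called lower in OP-mESC (-28.8 points, quasi-binomial F test, adjusted p = 0.0141). In the second Foxp4 window, also called lower in OP-mESC, the levels were 58.3% and 56.1% in YP-mESC, 31% and 34.9% in OP-mESC, and 87.6% to 90.6% in the 4 EB libraries. Neither pair of OP-mESC values overlapped those of YP-mESC, and the EB values lay above all others in both windows.

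Within the windows, neighbouring CpGs had different levels. In the mESC shCtrl libraries the SD among the CpGs of a window had a median of 20.1 and 20.3 points, where the read numbers alone would give 10 and 9.7, and 25.5% and 27.4% of the windows held both a CpG under 20% and one over 80%. In the intermediate windows within ICRs, the SD was 9.6 and 10.3 points, against 10.6 and 10.3 from read numbers. Over the 16 libraries the ratio of the observed SD to that from read numbers was 1.40 to 2.23 in the member windows and 0.75 to 1.23 in the 8 to 20 ICR windows, and it was higher in the member windows in each library. A high ratio was not particular to the member windows. In windows under 30% it was 2.29 and 1.97 in mESC shCtrl and 2.02 to 2.64 in the EB libraries. Members had 2.01 and 2.09, and 1.40 to 1.53, there. In YP-mESC, OP-mESC and OP-S33Y the windows under 30% had 0.96 to 1.02. The level of a window also differs between these sets and limits its SD, so the values are given as a description. The order of CpGs within a window recurred between replicates. With each window's mean removed, Pearson's r across CpGs was 0.77 to 0.87 between the replicates of the 8 groups (8617 to 32689 CpGs, which share windows and read depth and are not independent). Between mESC shCtrl replicate 1 and the first replicates of the other groups it was 0.66 to 0.85, lowest for EB shβcat #1. In the ICR windows it was -0.02 to 0.53 between replicates, over 80 to 341 CpGs.

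**Figure D1:**
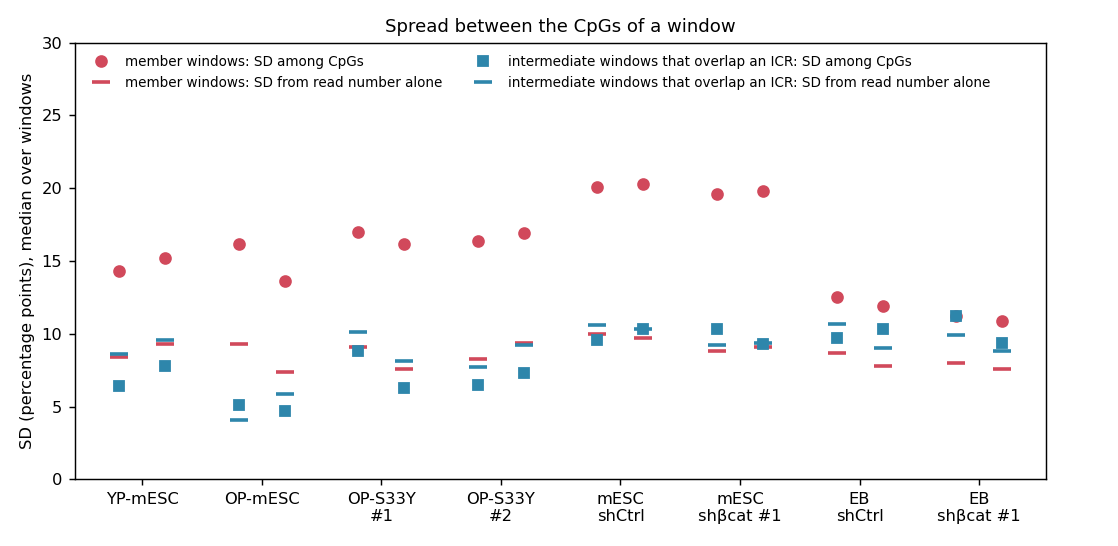
SD among the CpGs of a window (points, median over windows) in each of the 16 libraries, for member windows (circles) and for intermediate windows that overlap an ICR (squares), with the SD that the read numbers alone would give (dashes), in percentage points. Member windows lie above their dashes in every library, by a ratio of 1.40 to 2.23.

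The level of the windows was lowest in OP-mESC, followed by OP-S33Y #2, then by OP-S33Y #1 and YP-mESC, whose order depended on the windows read, then by mESC shCtrl, mESC shβcat #1 and the EBs. The median level was 45.5% ± 0.4 in YP-mESC, 29.4% ± 2.3 in OP-mESC, 44.4% ± 0.4 in OP-S33Y #1 and 39.2% ± 1.1 in OP-S33Y #2 (mean ± SD of the medians of 2 libraries). It was 51.7% ± 0.1 in mESC shCtrl, the group that chose the windows, and 56.3% ± 0.4 in mESC shβcat #1. It was 77.1% ± 0.7 in EB shCtrl and 77.2% ± 0.8 in EB shβcat #1. The medians of the EB groups did not differ beyond their spread. Their mean levels over the windows read in all 16 libraries were 73.9% ± 0.6 in EB shCtrl and 75.2% ± 0.6 in EB shβcat #1. Over the 1093 windows read in all 16 libraries, which keeps the set the same in every group, the medians were 42.2% ± 0.1 in YP-mESC, 27.9% ± 0.0 in OP-mESC, 42.5% ± 0.2 in OP-S33Y #1, 36.5% ± 0.4 in OP-S33Y #2, 77.0% ± 0.8 in EB shCtrl and 77.6% ± 0.6 in EB shβcat #1. There, YP-mESC and OP-S33Y #1 lay closer to each other than any other pair of mESC groups. In OP-mESC, 22.6% and 30.5% of the windows read were under 20%, against 5.6% and 4.5% in YP-mESC. In the 4 EB libraries 38.8% to 41.9% were over 80%.

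**Figure D2:**
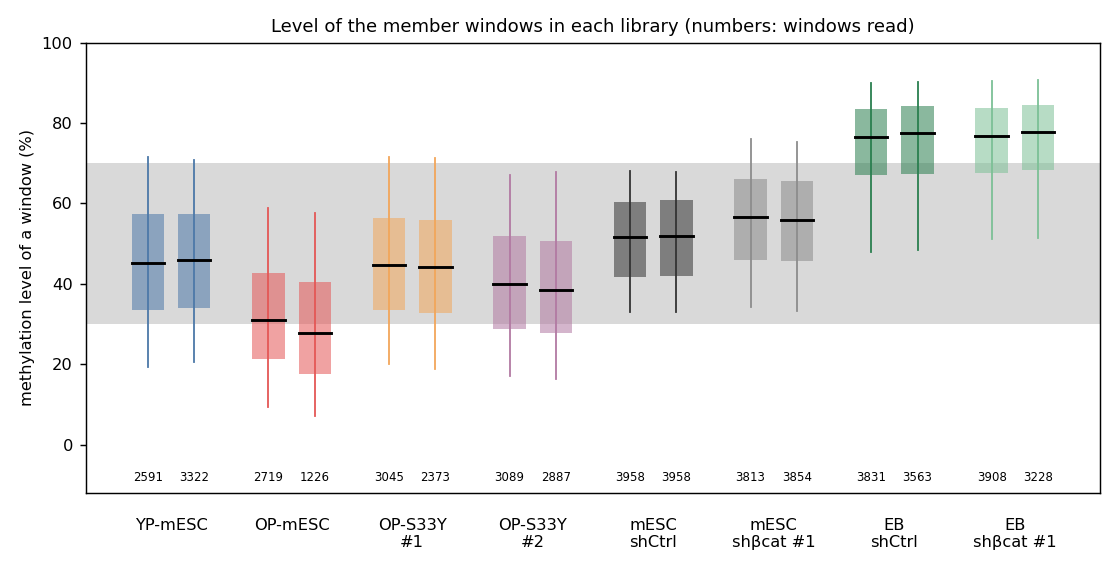
Methylation level (%) of the member windows in each of the 16 libraries, grouped by condition. Boxes span the quartiles, black lines are medians and thin lines reach from the 5th to the 95th percentile. The grey band is the 30% to 70% range that chose the windows in mESC shCtrl, and the number of windows read stands under each box. OP-mESC lies lowest, with medians of 31% and 27.8%, and the EB libraries highest, at 76.6% to 77.8%.

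Choosing on one mESC shCtrl library and reading the other gave a median of 52.7% over 4711 windows and of 52.1% over 4713, with 84.0% of the windows again between 30% and 70%. Levels were lower in windows with more CpGs in each mESC group. In windows of 5 to 15 CpGs the median was 54.6% ± 0.5 in YP-mESC and 40.7% ± 1.1 in OP-mESC, and in windows of 41 or more it was 33.6% ± 0.0 and 21% ± 2.1 (mean ± SD of 2 libraries). In mESC shCtrl, where the rule held the level between its limits, it went from 54.3% ± 0.1 to 45.9% ± 0.2. In EB shCtrl they went from 77.6% ± 0.2 to 71.1% ± 1.3.

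**Figure D3:**
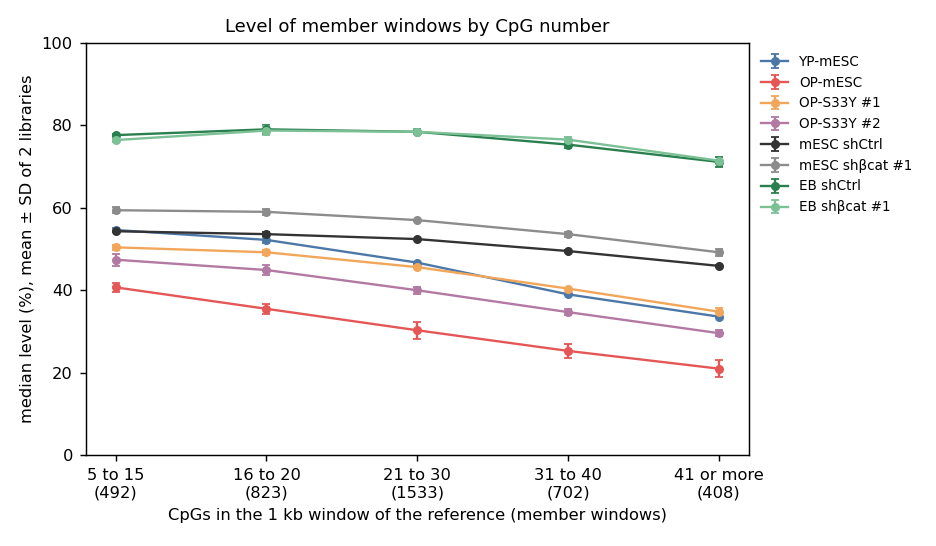
Median level (%) of the member windows by the number of CpGs in the 1 kb window of the reference, for the 8 groups. Points are means and bars SDs of 2 libraries, and the number of windows stands under each class. The median level in OP-mESC goes from 40.7% to 21% and lies under that of the other groups in each class.

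The comparison of OP-mESC with YP-mESC asks what long culture changed. A window was called when a quasi-binomial F test gave an adjusted p under 0.05 over all windows tested and the means differed by more than 25 points, on the CpGs read in all 4 libraries. Of 1114 member windows that could be tested, 155 were called lower (13.9%) and 2 higher (0.18%), against 1.57% lower and 0.0454% higher of all 19828 windows. The median difference was -12.25 points, and -0.24 points over all windows. The level was lower in OP-mESC at 1005 of the 1114 (90.2%), against 64.2% of all windows. Of the windows over 70% in mESC shCtrl, where a fall of 25 points was also possible, 53 of 3555 (1.49%) were called lower, with a median difference of -5.16 points. The difference between these shares was not tested.

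The largest falls were at 5 windows. At Ywhag, which encodes the adaptor 14-3-3γ, YP-mESC had 57.7% and 64.0% and OP-mESC 8.0% and 8.7% (-52.2 points, quasi-binomial F test, adjusted p = 0.0141). At the start of Mybl2, a cell cycle transcription factor gene (chr2:162900000-162900999), the values were 68.6% and 74.0% against 13.4% and 21.5% (-56.3 points, quasi-binomial F test, adjusted p = 0.0141). Both windows were thus mostly methylated in YP-mESC and mostly unmethylated in OP-mESC. The other 3 windows were intergenic, at chr9:57327000-57327999, chr5:149560000-149560999 and chr18:5428000-5428999, and were lower by differences of -52.0 to -54.2 points. The one on chromosome 18 had 75.6% and 58.1% in YP-mESC, 19.9% and 24.5% in OP-mESC, and 77.5% and 83.1% in OP-S33Y #1. The 2 windows called higher were in Robo4, an endothelial guidance receptor gene, with 35.7% and 33.6% in YP-mESC and 63.0% and 62.4% in OP-mESC, and at the start of Lrrc8d, a volume-regulated anion channel subunit gene (chr5:106161000-106161999), with 28.7% and 24.0% against 50% and 56.3%. By place, 24.5% of the 184 intronic, 14.2% of the 451 exonic, 12% of the 301 intergenic and 5.62% of the 178 transcription start windows tested were called lower. In the same order, the median differences were -13.7, -13.2, -11.3 and -11.1 points. The median levels of the members in YP-mESC were 49.4%, 46.4%, 44.2% and 39.4%, which leaves unequal room for a fall of 25 points. The part of this in the shares was not tested.

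The study's list of regions that lost methylation in OP-mESC was drawn from these same libraries and is not independent evidence. It overlapped 92 member windows, of which 52 were tested and 34 were called lower. Its list of gains overlapped 1 member window, in Repin1, a zinc finger gene (chr6:48547000-48547999), with 34.2% and 30.6% in YP-mESC and 66.8% and 53.8% in OP-mESC, which did not pass here. No call of this comparison stood when any 1 of the 4 libraries was left out, with 432 to 838 member windows at an unadjusted p under 0.05. The median difference then was -12.6 to -12.08 points. OP-mESC replicate 2, with the fewest CpGs, set which windows could be tested.

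The OP-S33Y clones were compared with the same YP-mESC libraries, so the 3 comparisons share their control. In OP-S33Y #1, 19 of 2171 member windows were called lower (0.875%) and 17 higher (0.783%), against 0.121% and 0.215% of all 29777 windows, with a median difference of -0.27 points. In OP-S33Y #2, 92 of 2233 were called lower (4.12%) and 14 higher (0.627%), against 0.651% and 0.145% of all 30393 windows, with a median of -4.84 points. Member windows thus moved in both directions in OP-S33Y #1 and mostly downward in OP-S33Y #2. Without any 1 library no call remained, with 356 to 414 and 485 to 746 members at an unadjusted p under 0.05. With limma on arcsine square root values no window was called in OP-S33Y #1, with 820 members at an unadjusted p under 0.05.

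In OP-S33Y #1 the largest falls were at Mybl2, Ppp6r3, Zfp64, Tex14 and Arhgap44, by differences of -34.8 to -36.6 points. At Ppp6r3, which encodes a regulatory subunit of protein phosphatase 6, YP-mESC had 60.4% and 52.8% and OP-S33Y #1 21.6% and 20%. At Tex14, a gene for germ cell bridges (chr11:87296000-87296999), the values were 68.2% and 71.8% against 28.9% and 41.4%. The largest gains were at Ccdc39, Socs5, Scnn1b and 2 intergenic windows, by 30.8 to 36.0 points. At Socs5, a suppressor of cytokine signalling (chr17:87524000-87524999), YP-mESC had 30.7% and 38.0% and OP-S33Y #1 66.1% and 65.2%. Its level in OP-mESC, 35.6% and 33.3%, overlapped that of YP-mESC.

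In OP-S33Y #2 the largest falls were in Gtf2ird1, Cabp1, Cdt1, Cnn3 and U2af1l4, by differences of -41.1 to -52.5 points. At Cdt1, a replication licensing factor gene (chr8:125095000-125095999), YP-mESC had 61.8% and 57.9% and OP-S33Y #2 14.7% and 19.8%. At Cabp1, a calcium-binding protein gene (chr5:115622000-115622999), the values were 58.3% and 58.4% against 6.6% and 14.2%, and OP-mESC had 18.9% and 25.7%. The gains were led by an intergenic window at chr5:33785000-33785999, with 44.4% and 40.1% against 85.0% and 89.7%, and by Robo4, with 77.2% and 68.0%. In OP-S33Y #1, Robo4 had 65% and 59.3%. Robo4 was therefore called higher than YP-mESC in each of the 3 comparisons, by 28.1 points in OP-mESC, 27.5 in OP-S33Y #1 and 38.0 in OP-S33Y #2.

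The clones were also compared with each other, a comparison added after the values were seen. Of 2102 member windows, 3 were called lower in OP-S33Y #2 and 0 higher, against 0.0435% and 0.00334% of all 29904 windows. At an unadjusted p under 0.05 there were 681 lower and 95 higher. The median difference was -4.85 points, with OP-S33Y #2 lower at 1644 windows (78.2%), against 51.7% of all windows. Windows over 70% in mESC shCtrl were lower at 6261 of 7654 (81.8%, median -3.11 points), so the direction was not particular to the member windows. The 3 windows were at the start of Sohlh2, a germ cell transcription factor gene (64.7% and 55.1% against 25.3% and 29.9%), in a coding exon of Tfip11, a splicing factor gene (62.8% and 59.3% against 30.2% and 32.4%), and in Zfp30, a zinc finger gene (44.0% and 52.7% against 24.7% and 23.8%). Most single windows were thus not told apart between the clones, while the direction of the small differences was mostly the same.

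**Figure D4:**
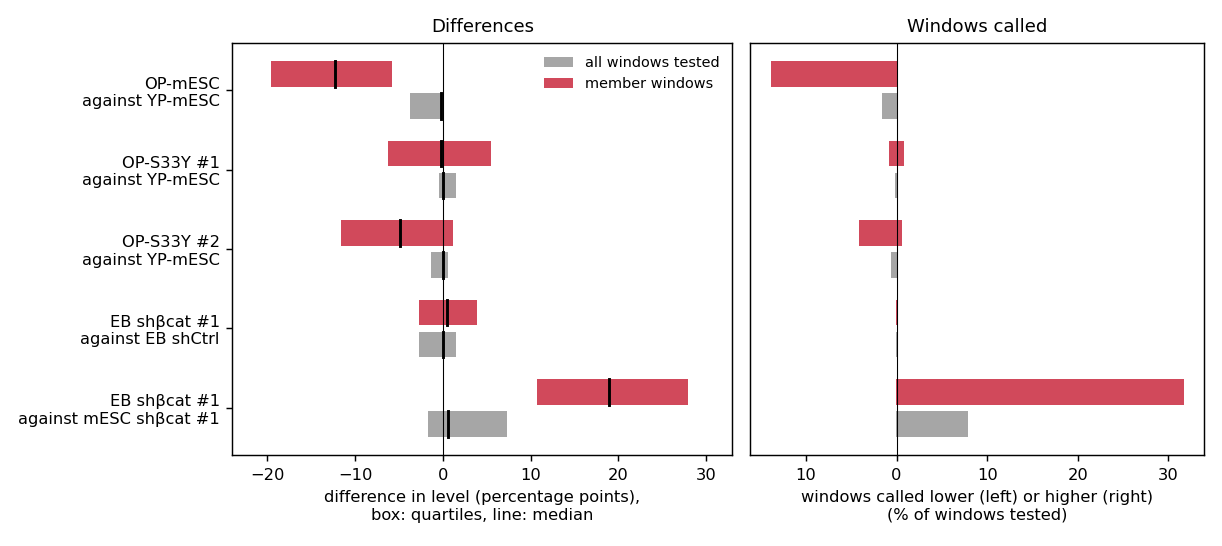
Left, difference in level (percentage points) of the windows tested in 5 comparisons, with boxes from the lower to the upper quartile and a line at the median. Right, share of the windows tested that were called lower (left of 0) or higher (right of 0). Red bars are member windows and grey bars all windows tested. The median of the member windows is -12.25 in OP-mESC against YP-mESC and 18.92 in EB shβcat #1 against mESC shβcat #1, while that of all windows is -0.24 and 0.64.

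In EBs the windows gained methylation. EB shβcat #1 was compared with mESC shβcat #1, since mESC shCtrl had chosen the windows. Of 3144 member windows tested, 997 were called higher (31.7%) and 1 lower (0.0318%), against 7.85% and 0.0204% of all 39155 windows. The median difference was 18.92 points, and 0.64 points over all windows. The level was higher at 2960 windows (94.1%), against 64.0% of all windows. It was higher at 84.6% of the windows under 30% in mESC shCtrl and at 19.9% of those over 70%. Of the windows under 30% in mESC shCtrl, 1763 of 21593 (8.16%) were called higher, and of those over 70%, which could hardly rise by 25 points, 3 of 12304. In the 17 intermediate ICR windows tested, the median difference was 1.69 points and 1 was called. The difference between these shares was not tested. Without any 1 library, 957 to 1117 member windows were called higher and 1 or 2 lower.

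The largest gain was at Ppp6r3, with 20.1% and 23.3% in mESC shβcat #1 and 94.2% and 89.0% in EB shβcat #1 (71.0 points, quasi-binomial F test, adjusted p = 9e-06). Kdm6b, which encodes a demethylase of histone H3 lysine 27 (chr11:69217000-69217999), had 49.0% and 43.5% against 82.9% and 80%, with a difference of 67.1 points on the CpGs in common. Fiz1, a zinc finger gene (chr7:4959000-4959999), had 30.8% and 31.3% against 92.2% and 94.3%. Tcfeb, a regulator of lysosomal genes (chr17:47881000-47881999), had 27.5% and 24.5% against 81.0% and 88.5%, and an intergenic window (chr17:23013000-23013999) 18.1% and 15.1% against 81.5% and 80.7%. In each of these 5 windows the EB values lay above 70% and the mESC values under 50%. The one window called lower was at the start of Vrtn, a gene of vertebral development (chr12:85983000-85983999), with 60.6% and 59.2% in mESC shβcat #1 and 29.1% and 34.2% in EB shβcat #1. Vrtn also stood at 20.9% and 25.1% in EB shCtrl, and at 60.4% and 63.2% in mESC shCtrl. Of exonic windows 41.2% were called higher, of intronic 30.9%, of transcription start windows 28.7% and of intergenic windows 21.6%.

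Over the 3067 windows read in all 4 EB libraries, 1788 (58.3%) were over 70% in each, 584 (19%) stayed between 30% and 70% in each and 0 were under 30% in each. The windows that stayed intermediate held a median of 29 CpGs per kb and contained a transcription start in 22.6% of cases, against 24 CpGs and 11.3% for those over 70%. Their level in mESC shCtrl was also lower, with a median of 40.5% against 55.8%. In OP-mESC against YP-mESC, libraries that played no part in this split, 9 of 224 windows that stayed intermediate in EBs were called lower (4.02%) and 131 of 645 of those over 70% in EBs (20.3%). The starting level in YP-mESC differed as well, at 31.5% ± 0.3 and 50.2% ± 0.1 (mean ± SD of the medians of 2 libraries), which leaves less room for a fall of 25 points in the first. Its part in the result was not tested.

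The EBs of the 2 shRNAs differed little. In EB shβcat #1 against EB shCtrl, 5 of 3010 member windows were called higher (0.166%) and 1 lower (0.0332%), against 0.0264% and 0.0106% of all 37870 windows, with a median difference of 0.52 points. The higher ones were the chromosome 9 window shown above (27.7% and 24.4% in EB shCtrl, 59.2% and 59.7% in EB shβcat #1), an intron of Maml3, a Notch coactivator gene (41% and 39.7% against 65% and 65.4%), the start of Adra1a, an adrenergic receptor gene (30.2% and 41.3% against 70.5% and 63.2%), and intergenic windows at chr5:38286000-38286999 and chr8:90975000-90975999. The chromosome 9 window stood at 38.6% and 39.3% in mESC shCtrl and at 43.2% and 46.0% in mESC shβcat #1, so that EB shCtrl lay under its mESCs and EB shβcat #1 above. The lower one was an intergenic window at chr17:23685000-23685999, with 56.0% and 58.5% in EB shCtrl and 25.8% and 40% in EB shβcat #1. It stood at 40.4% and 37.7% in mESC shCtrl and at 22.0% and 18% in mESC shβcat #1. Without any 1 library no call remained, with 227 to 325 members at an unadjusted p under 0.05, and limma called none, with 548. The study's lists of regions for this comparison came from the same libraries. The list of losses overlapped 1 member window, on chromosome 17, and the list of gains 6, of which 2 were called here.

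Few windows kept one level through all conditions. Of the 1093 windows read in all 16 libraries, 24 (2.2%) stayed between 30% and 70% in each, and 730 (66.8%) had both OP-mESC values under both YP-mESC values together with all 4 EB values above the YP-mESC, OP-mESC, mESC shCtrl and mESC shβcat #1 values. OP-mESC had the lowest group mean in 831 windows (76.0%), and EB shβcat #1 the highest in 625 (57.2%) and EB shCtrl in 435 (39.8%). These counts were made in member windows only, and the rule held mESC shCtrl at 70% or less. In the tests, both OP-mESC values lay under both YP-mESC values at 885 of 1114 members and 7734 of all 19828 windows. Both EB shβcat #1 values lay above both mESC shβcat #1 values at 2785 of 3144 members and 18806 of all 39155 windows. Among 431 windows with 10 or more CpGs on average, the range over the libraries had a median of 53.2 points. The smallest range was in the intergenic chromosome 7 window, where the 16 values lay between 58.5% and 77.2%, and its neighbour (chr7:7231000-7231999) came next with 52.5% to 76.1%. The first of these was read by 1579 to 3093 reads per library, where the median over member windows was 179 to 305. Whether this depth bears on its level was not tested. A coding exon of Atp8b3, a phospholipid flippase gene (chr10:79997000-79997999), ranged from 54.3% to 78.6%. The widest ranges were in coding exons of Fam124a, Ywhag, Clasrp, Fbxo46 and Zbtb7a, at 80.2 to 89.1 points. The lowest value of Fam124a, 0.0% in OP-mESC replicate 2, came from 5 CpGs and 60 reads, and replicate 1 had 19.7%. Fbxo46 was read by 5 CpGs in the YP-mESC, OP-mESC and OP-S33Y libraries and by 9 to 24 in the others. In Zbtb7a, a transcription factor gene, OP-mESC had 9.3% and 7.9% and EB shβcat #1 88.1% and 77.7%.

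**Figure D5:**
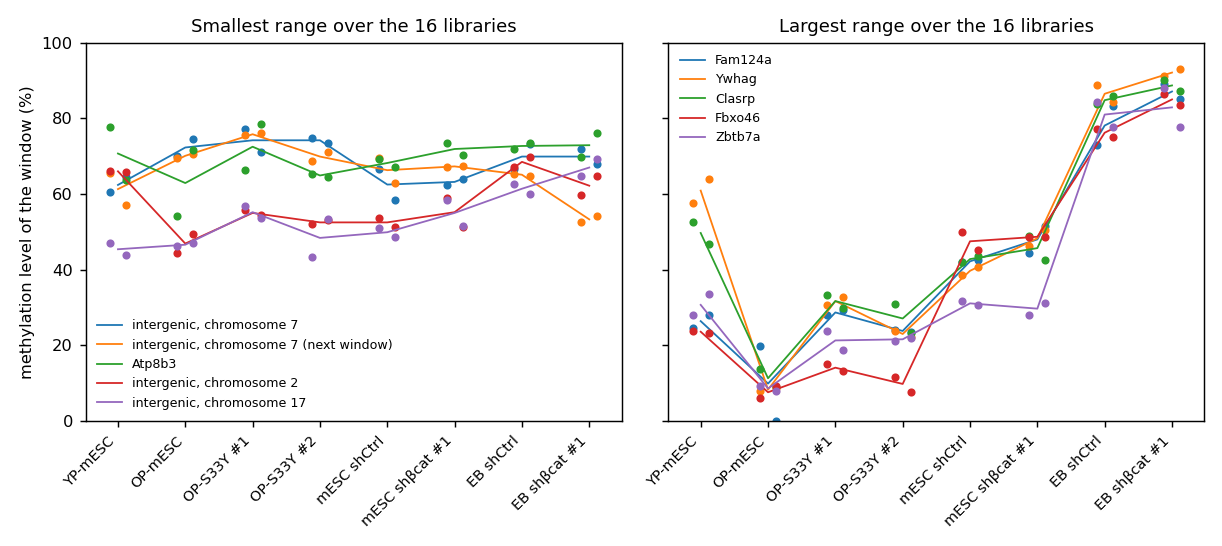
Level (%) of the 5 member windows with the smallest (left) and the largest (right) range over the 16 libraries, among windows with 10 or more CpGs on average. Points are the 2 libraries of each group and lines join group means. On the right, each window is lowest in OP-mESC and highest in the EB groups, with ranges of 80.2 to 89.1 points.

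Some windows were intermediate in the shRNA lines and nearly unmethylated in the others. Of 1116 windows read in all 8 YP-mESC, OP-mESC and OP-S33Y libraries, 285 were between 30% and 70% in each and 4 were under 10% in each. These were 3 adjacent windows over Zfp316, a zinc finger gene (chr5:144014000-144016999), and the start of B230217C12Rik (chr11:97702000-97702999), named here after their values were seen. In the middle Zfp316 window, the 8 libraries had 0.8% to 3.5%. There, mESC shCtrl had 37.1% and 37.3%, mESC shβcat #1 46.0% and 41.2%, EB shCtrl 44.6% and 44.6%, and EB shβcat #1 47.2% and 52.3%. The gap between mESC shCtrl and the 8 libraries was fixed by how these windows were chosen and is a description. The values in mESC shβcat #1 and in the EBs played no part in that choice. Transduction, selection and the culture they came from cannot be told apart here. The study lists the Zfp316 windows as gained in mESC shβcat #1 over mESC shCtrl, a comparison not tested here. Its list of losses in mESC shβcat #1 overlapped 2 member windows. They were in a coding exon of Nefm, a neurofilament gene, with 56.7% and 61.3% in mESC shCtrl and 26.4% and 28.7% in mESC shβcat #1, and at the start of Pmaip1, an apoptosis gene, with 59.5% and 56.9% against 40.9% and 37.3%.

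Few windows of any level were read close to an ICR but outside it. Within 10 kb there were 13, too few for a share to set against the 8.85% of all windows read. Of the 13, 2 were members. The nearest was in Mest, an imprinted hydrolase gene (chr6:30682000-30682999), 1933 bases from its ICR, with 66.0% and 32.5% in YP-mESC, 22.4% and 11.0% in OP-mESC and 61.0% and 61.4% in EB shβcat #1. The YP-mESC replicates lay far apart there, and no comparison was called. The next, in an intron of H13, a signal peptide peptidase gene (chr2:152519000-152519999), had 49.1% and 44.7% in mESC shCtrl and 84.3% and 90.0% in EB shβcat #1, and was called higher in EBs. Of 121 windows at the imprinted genes listed, 7 were members (5.79%), at Calcr, H13, Htr2a, Mest and Slc22a3. At the start of Slc22a3, an organic cation transporter gene in the Igf2r domain (chr17:12700000-12700999), OP-mESC replicate 2 had 16.4%. All other libraries had values between 26.2% and 44.1%.

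Germline genes are known for promoters that are methylated in somatic cells. The windows counted here lay in the gene body or up to 1 kb upstream, so not only at promoters. Of 43 such windows at the germline genes listed, 10 were members (23.3%, against 8.85% of all windows read). They were at Dazl, Hormad1, Mael, Piwil2 (just upstream), Sohlh2, Spo11, Sycp2 (intron), Tdrd1, Tdrd9 (coding exon and UTR) and Tex14 (intron). Of those tested, 1 of 6 was called lower in OP-mESC and 4 of 9 were called higher in EB shβcat #1 against mESC shβcat #1, where 13.9% and 31.7% of all members tested were called. Spo11, which encodes the enzyme of meiotic DNA breaks, had 54.5% and 57.6% in YP-mESC and 24.0% and 39.1% in OP-mESC (-33.0 points, quasi-binomial F test, adjusted p = 0.0188). Dazl, a germ cell RNA-binding protein gene, had 35.7% and 42.4% in mESC shCtrl and 40.4% to 45.8% in the EB libraries, and was not called. Mael, a gene of the piRNA pathway, had 37.6% and 39.1% in mESC shβcat #1 and 67.0% and 67.0% in EB shβcat #1 (28.3 points, quasi-binomial F test, adjusted p = 9.26e-06). The starts of Dazl and Mael thus had similar levels in mESCs and different ones in EBs.

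The remaining lists held members near the share of all windows. The list of homeobox and T-box genes was drawn by symbol. It included Tbx genes, which are not homeobox genes, and all Pax genes, of which some lack a homeobox. This list had 49 members of 505 windows (9.7%), zinc finger genes 57 of 626 (9.11%) and Wnt pathway genes 19 of 254 (7.48%). In EB shβcat #1 against mESC shβcat #1, 8 of 48 homeobox and T-box windows were called higher (median difference 13.4 points). The counts were 29 of 53 for zinc finger windows (26.8 points) and 3 of 15 for Wnt windows (19.4 points). Of all members 31.7% were called higher, with a median difference of 18.92 points. In OP-mESC against YP-mESC, 1 of 11, 3 of 20 and 1 of 7 were called lower, against 13.9% of all members tested. Zinc finger windows were thus called higher in EBs more often than all members, and homeobox and T-box windows less often. For the 15 Wnt windows the median difference lay near that of all members, and the count is too small to give a direction. These differences were not tested, and the lists are short. The counts called lower in OP-mESC lay near the share of all members. None of these lists had a call in EB shβcat #1 against EB shCtrl, where 0.166% of all members tested were called higher and 0.0332% lower. The Wnt members were at Apc2, Axin2, Ctnnd1, Ctnnd2, Dvl1, Dvl2, Rnf43, Sfrp1, Tcf7, Tcf7l1, Tcf7l2, Wnt1, Wnt3a, Wnt5a, Wnt6, Wnt7b and Wnt8a.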

How the data were processed

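RRBS calls of 16 libraries in 8 groups were used, grouped by the labels. The authors trimmed the reads with CASAVA 1.8.2 and Trim Galore 0.2.8, aligned them to mm9 with Bismark 0.7.9 and deposited, for each CpG cytosine, the count of reads and the percent methylated and unmethylated. The deposited counts are not normalized, and all cytosines have at least 10 reads. The handling of duplicate reads is not given in the sources used here. Duplicates would make reads less independent. The authors' region lists and ICR coordinates were used for overlaps only.

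Here, methylated reads were recovered from count and percent, strands were summed, and the level of a window (floor of base over 1000) was the mean over its CpGs. The member windows and gene lists were chosen with earlier results of these data known. Comparisons summed the reads of CpGs covered in all 4 libraries (5 or more CpGs per window) and used a quasi-binomial logistic F test with an overdispersion per window, moderated across windows as in limma and not below 1, and Benjamini-Hochberg adjustment over all windows tested. Printed differences are on those common CpGs, and printed levels on all CpGs of a library. An exact permutation test on 2 against 2 libraries has 0.33 as its smallest p and was not used. The test was tried on simulated reads. Named windows were, per comparison and direction, up to 5 called members with the largest difference, the 5 smallest and 5 largest ranges, the longest runs, those nearest to an ICR and those in the authors' lists. Others are marked. Genes are from GENCODE vM1 on mm9 (gene body or 1 kb upstream for lists), and sequences from the mm9 genome. Alternatives were 20 reads per CpG, 10 CpGs per window, limits of 40% and 60%, no CpG above the 99.9th percentile of coverage, limma on arcsine square root values, a block for the replicate number, and the omission of each library. Replicates sharing a number did not deviate together (r of -0.02 to 0.03 over members). Software was R 4.3.3 with limma 3.58.1, and Python 3.11.15 with pysam 0.24.0, matplotlib 3.10.9, pandas 2.3.3, scipy 1.17.1 and numpy 2.4.6.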

Additional observations from a re-analysis of the deposited data

Results flagged for a closer look

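The effects of the OP-S33Y clones against the shared YP-mESC libraries differed at 3 member windows. A direct test of OP-S33Y #2 against OP-S33Y #1 called 3 windows lower (Sohlh2, Tfip11 and Zfp30) and 0 higher of 2102, where 681 were lower and 95 higher at an unadjusted p under 0.05. With limma, and without any 1 library, none was called.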

How the results depend on the processing

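At 20 reads per CpG, 2028 windows were members. Called lower and higher were 48 and 1 in OP-mESC, 8 and 5 in OP-S33Y #1, 37 and 3 in OP-S33Y #2, and 2 and 517 in EB shβcat #1 against mESC shβcat #1, with 3 higher in EB shβcat #1 against EB shCtrl and 0 lower between the clones. The medians were -12.94 points in OP-mESC and -0.51 in OP-S33Y #1. With 10 CpGs per window, 955 were members, and 9 and 0, 2 and 4, 7 and 4, 0 and 2 (EB shβcat #1 against EB shCtrl) were called, with 261 higher in EBs against mESCs. The medians were -10.89, 1.36 (OP-S33Y #1, where the sign turned), -3.94 and 20.21 points. Between 40% and 60%, 1565 were members, with 83 lower in OP-mESC, 7 and 6 in OP-S33Y #1, 50 and 6 in OP-S33Y #2, 0 and 1 between the EBs, 0 and 465 in EBs against mESCs and 0 lower between the clones, and medians of -13.32, -0.9 and 21.03 points (OP-mESC, OP-S33Y #1, EBs against mESCs). Fewer windows were tested in each by construction. With limma, 60 were lower in OP-S33Y #2, and 0 were called in OP-S33Y #1, between the EBs and between the clones. Leaving out CpGs of very high coverage changed no count by more than 1.5 times.

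With the replicate number as a block, which the replicates' deviations did not bear out, 0 members were called in OP-mESC, either clone or between the clones, with 585, 597, 836 and 560 at an unadjusted p under 0.05, and 1 and 6, and 1 and 996, were called in the EB comparisons. The block leaves 1 residual degree of freedom.

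Without 1 library, a lone sample is taken to vary like the other group. The counts called lower and higher ranged from 0 to 0 in each comparison except EB shβcat #1 against mESC shβcat #1, with 1 to 2 lower and 957 to 1117 higher. The median differences ranged from -12.6 to -12.08 (OP-mESC), -0.25 to -0.07 (OP-S33Y #1), -5.23 to -4.45 (OP-S33Y #2), 0.14 to 0.81 (EB shβcat #1 against EB shCtrl), 18.4 to 19.44 (EBs against mESCs) and -5.23 to -4.41 points (clones). Of 39 named calls, 39 were kept without CpGs of very high coverage, 23 with limma and 12 with the block, and 24 of 156 without 1 library. No named difference changed its sign.

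The windows that could be tested were limited by CpGs in common, 28.1% of the members in OP-mESC and 79.4% in EBs against mESCs. At 10 reads a CpG moves in steps of 10 points, and single CpGs were not tested.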

Other observations

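The share of the windows read that were members ranged from 6.24% on chromosome 13 to 10.4% on chromosome 17. At the start of Esrrg, an orphan nuclear receptor gene (chr1:189432000-189432999), the levels were 20.6% and 23.6% in YP-mESC, 9.2% and 7.1% in OP-mESC, 50% and 48.5% in EB shCtrl and 63.4% and 64.2% in EB shβcat #1. This window was not called in any comparison.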
